A study of Pyrus pyrifolia with 6 samples.

Results

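The enzymes of terpenoid and carotenoid synthesis were examined in healthy and watercore pear pulp. A gene was a member when it was protein-coding and its product name, the text before the first separator of the description, named a terpene synthase or farnesene, germacrene or linalool enzyme, a carotenoid, phytoene, lycopene, zeaxanthin or beta-carotene enzyme, a hydroxymethylglutaryl-CoA enzyme, a farnesyl or geranylgeranyl pyrophosphate synthase, a deoxyxylulose enzyme or a squalene enzyme. Names holding "9-cis" were left out. The rule found 87 members among the 38969 genes of the table and used no measured value. It matched no deoxyxylulose enzyme, because the products of that step are spelled otherwise in the table, and the genes of the steps it misses are described further on as other genes of the pathways.

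Plants build terpenoids from isopentenyl diphosphate, which is made by the mevalonate pathway in the cytosol and by a separate pathway in the plastid. Farnesyl pyrophosphate from the first route leads to squalene, and squalene monooxygenase turns squalene into the epoxide that is cyclised to sterols or to triterpenes such as beta-amyrin. Geranylgeranyl pyrophosphate in the plastid leads to phytoene and the coloured carotenoids, and carotenoid cleavage dioxygenases cut these into aroma compounds and hormone precursors. Triterpene acids are well-known compounds of apple and pear peel.

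RNA was sequenced from normal pulp and from pulp with the water-soaked disorder called watercore, in 3 libraries per group, from fruit of the sand pear *Pyrus pyrifolia*. The labels give both groups the cultivar name Qiurong, trees of 5 years and a harvest at day 120. They give no treatment other than the sorting of the pulp. The methods of the paper give another day and tree age. They use the cultivar name Akibae, and whether Qiurong and Akibae are names of the same cultivar was not examined. The labels name fruit skin as the organ although the groups are defined on pulp, and nothing in the labels says how many fruits went into a library. Affected and normal pulp were told apart by their appearance, so the contrast is between tissues sorted by symptom and not between treatments. The p-values measure the spread between the 3 libraries of a group, and in bulk tissue fewer cells of a type cannot be told apart from less RNA per cell.

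Library totals ranged from 14382020 to 15290688 counts, so that 10 counts were worth 0.687 CPM (counts per 1e6 counts of the library). Log2 values of libraries of the same group correlated across genes with r between 0.978 and 0.982, and those of different groups with r between 0.849 and 0.87, where genes are not independent replicates. Watercore libraries held counts for 27133 to 27293 genes and healthy libraries for 24757 to 25105. Cuticle and epidermis genes, a list of 69 set against the organ in the labels, summed to between 111 and 117 CPM in healthy and between 110 and 120 CPM in watercore libraries, and 47 of them were at 0 counts in healthy and 33 in watercore pulp. Of the 9 tested genes of this list 3 were higher and 1 lower. Seed protein genes stood apart: the 50 on the list summed to between 456 and 479 CPM in healthy and between 1870 and 2044 CPM in watercore libraries, with 31 at 0 in healthy and 21 in watercore pulp, and 10 of 17 tested were higher and 1 lower. Within that list the 2 globulin genes went from between 6.91 and 17.4 CPM to between 1138 and 1279 CPM, whereas the 13 oleosin genes, the oil body proteins of seeds, summed to between 57.7 and 77.3 CPM against between 71.0 and 84.1 CPM. The 2 legumin genes went from between 65.8 and 127 CPM to between 446 and 467 CPM, and the 24 late embryogenesis genes, which went the other way, from between 251 and 292 CPM to between 192 and 216 CPM. A list of 35 vascular genes also lay apart, with sums between 137 and 157 CPM in healthy and between 168 and 180 CPM in watercore libraries. Of its 7 tested genes 2 were higher and 1 lower. The part of the genes of these lists in the results given here was not tested.

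Of the 87 members, 24 had no count in any library and another 24 had too few counts to be tested, with at most 37 over the 6 libraries. The remaining 39 passed the filter on low counts. A gene was called when its fitted log2 fold change, watercore over healthy, was at least 1 in size and the adjusted p of the quasi-likelihood test of edgeR, corrected over all 21200 genes tested, was under 0.05. By this rule 17 of the 39 tested members were higher in watercore pulp (43.6%) and 3 were lower (7.69%), where 17.6% of all tested genes were called higher and 7.54% lower. The 3 libraries of watercore pulp lay above all healthy libraries for 21 members and below them for 8, while 35.5% of all tested genes were apart in the first direction and 33.8% in the second. The median log2 fold change of the tested members was 0.83, beside 0.00 over all tested genes.

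The filter bears on these counts. A gene with almost no healthy RNA entered the test only through its watercore libraries and then had to differ. Of the tested members, 13 were above the filter in every watercore library but not in every healthy library. Of these 13, 11 were called higher, as were 80.2% of the 2187 genes of all kinds in that position. They include genes with some healthy RNA, such as LOC103963711 with 24, 31 and 7 healthy counts. The other 26 members were above the filter in every library of both groups. Of these 26, 6 were called higher (23.1%) and 3 lower (11.5%), beside 11.0% and 6.83% of the 17943 such genes.

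**Figure D1:**
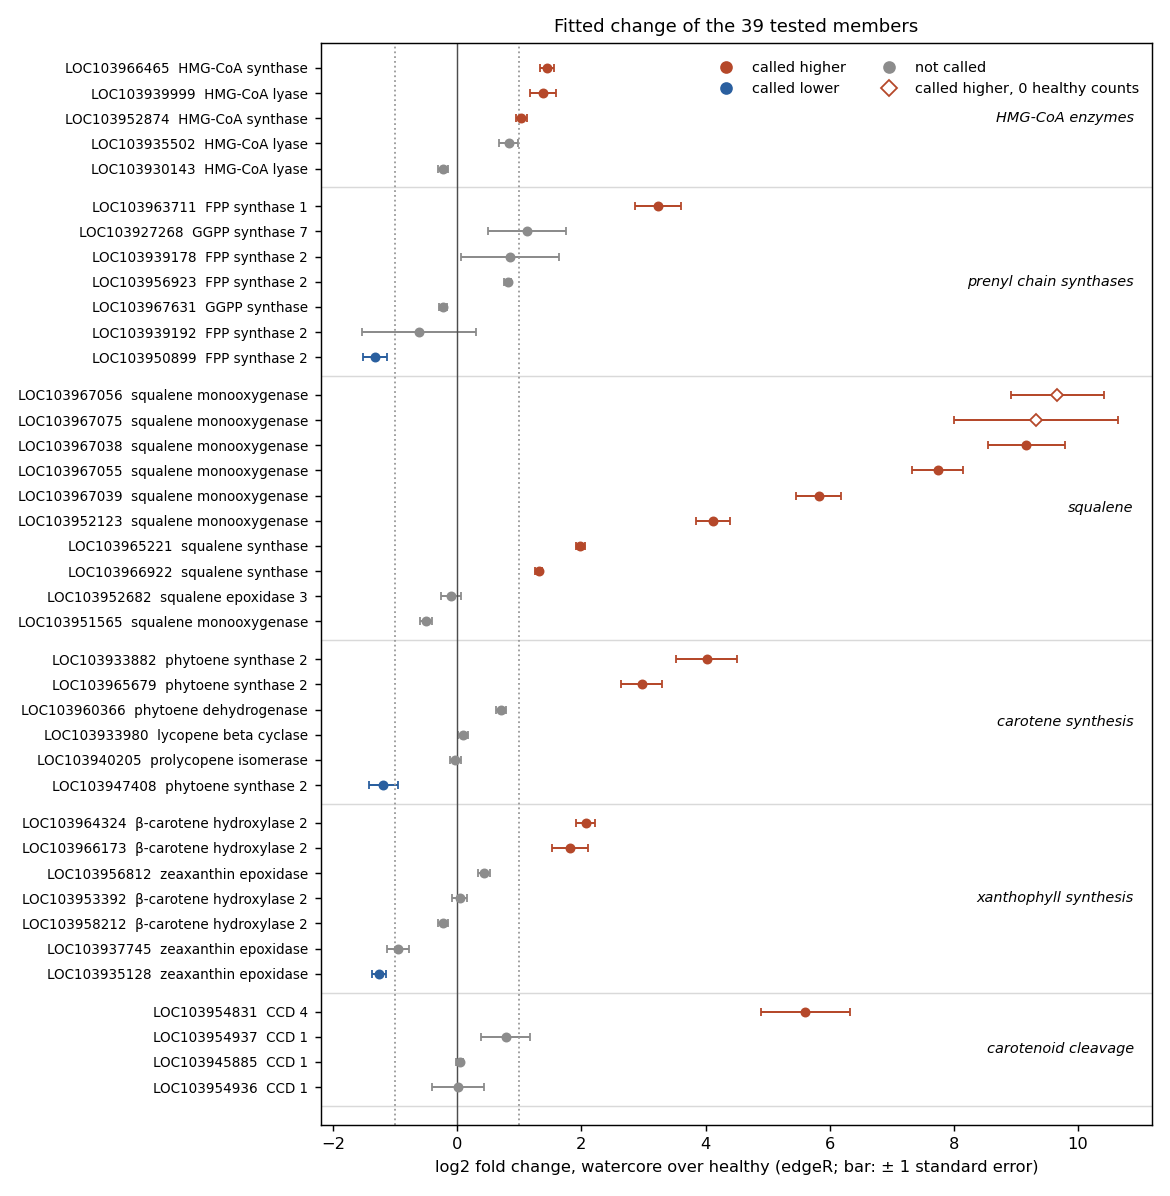
Fitted log2 fold change of watercore over healthy pulp for the 39 tested members, ordered by role and size, with a bar of 1 standard error to each side and dotted lines at the fold threshold. Of the 17 members called higher (red), 8 are squalene enzymes, the 3 called lower (blue) are spread over 3 roles, and the 2 open diamonds had 0 healthy counts, so that their fitted value depends on the prior count of the fit.

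An early enzyme of the mevalonate pathway was higher in watercore pulp. Hydroxymethylglutaryl-CoA (HMG-CoA) synthase condenses acetoacetyl-CoA with acetyl-CoA, and both of its genes were called. LOC103966465, the more abundant of the pair, had 71.4, 82.0 and 57.5 FPKM (fragments scaled by gene length and library size) in the healthy libraries and 200, 193 and 189 FPKM in the watercore libraries. All watercore values were more than double every healthy value, and the log2 fold change was 1.45 ± 0.11 (SE, adjusted p = 7.7e-06, edgeR). LOC103952874 had 23.0, 26.0 and 21.8 FPKM in healthy and 51.0, 43.5 and 51.0 FPKM in watercore pulp. Its groups were well apart, but its log2 fold change of 1.03 ± 0.09 (adjusted p = 1.7e-05, edgeR) sat at the threshold and was between 0.97 and 0.99 without healthy replicate 3, watercore replicate 1 or watercore replicate 3. Both genes together came to 93.9 ± 14.3 FPKM (SD, n = 3) in healthy and 243 ± 7.11 FPKM in watercore pulp.

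The product search also took in 3 genes of HMG-CoA lyase, which splits HMG-CoA in the breakdown of leucine and makes no terpenoid precursor. The least abundant, LOC103939999, was called higher, with 1.32, 1.26 and 1.18 FPKM in healthy and 3.52, 3.22 and 3.17 FPKM in watercore pulp (log2 fold change 1.38 ± 0.21, adjusted p = 3.9e-04, edgeR). Of the other lyase genes, LOC103935502 changed by 0.83 on the log2 scale (adjusted p = 0.00119) and LOC103930143 by -0.23 (adjusted p = 0.0264), both short of the fold threshold, and the second overlaps a gene on the opposite strand. The summed lyase level was 33.3 ± 0.471 FPKM in healthy and 38.2 ± 1.06 FPKM in watercore pulp, a ratio of 1.15 beside 2.58 for the synthases.

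The prenyl chain synthases, which join isopentenyl units into longer chains, did not move together. Of 10 such members 7 were tested, 1 was called higher and 1 lower. Farnesyl pyrophosphate synthase 1, LOC103963711, had 1.12, 1.43 and 0.339 FPKM in healthy and 10.8, 9.24 and 7.81 FPKM in watercore pulp. Every watercore library was above every healthy library, and the log2 fold change was 3.24 ± 0.37 (adjusted p = 7.8e-05, edgeR). A farnesyl pyrophosphate synthase 2-like gene, LOC103950899, went the other way, with 208, 163 and 141 counts in healthy and 77, 71 and 56 counts in watercore libraries. It fell by 1.33 on the log2 scale (SE 0.19, adjusted p = 2.9e-04, edgeR), with no overlap of the groups.

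The farnesyl pyrophosphate synthase with most RNA was neither of these. LOC103956923 took 65.7% of the summed FPKM of the 5 genes in healthy and 72.2% in watercore pulp, and went from between 53.7 and 54.1 FPKM to between 90.0 and 98.7 FPKM, a log2 fold change of 0.81 ± 0.06 (adjusted p = 5.0e-06, edgeR) that stayed under the fold threshold. The 5 genes summed to 82.7 ± 9.12 FPKM in healthy and 134 ± 16.2 FPKM in watercore pulp. A pair of farnesyl pyrophosphate synthase 2-like genes lying 105944 bases apart varied widely within groups. LOC103939178 had 131, 85 and 513 counts in healthy and 186, 959 and 181 counts in watercore libraries. LOC103939192 had 29, 520 and 25 counts in healthy and 138, 110 and 122 counts in watercore libraries. A single library carried most of the RNA in 3 of these 4 sets of values, and it was a different library each time. Leaving out 1 library moved the log2 fold change of the first gene between -0.44 and 2.06 and that of the second between -1.13 and 2.16, so no direction can be given for either.

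Geranylgeranyl pyrophosphate synthase, the branch point to carotenoids, included the most abundant single member per gene length over the 6 libraries. LOC103967631 had 239, 242 and 221 FPKM in healthy and 209, 190 and 206 FPKM in watercore pulp. The watercore libraries were all slightly lower, with a log2 fold change of -0.23 ± 0.06 (adjusted p = 0.00943, edgeR), far from the fold threshold. The other tested gene of this enzyme, LOC103927268, had at most 16 counts in a library and overlapping groups, and it also overlaps a gene on the opposite strand. The remaining 3 genes held at most 5 counts each over all libraries.

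Of 16 squalene enzyme genes, 10 were tested, 8 were called higher (80.0%, beside 17.6% of all tested genes) and none lower (beside 7.54%). Of the 8, 6 were above the filter in every watercore library but not in every healthy library, a position in which 80.2% of genes of all kinds were called higher. Both genes of squalene synthase, which joins 2 farnesyl pyrophosphate molecules into squalene, rose. LOC103966922 lay between 24.1 and 26.3 FPKM in healthy and between 61.4 and 66.3 FPKM in watercore pulp (log2 fold change 1.31 ± 0.06, adjusted p = 7.4e-07, edgeR). LOC103965221 lay between 12.4 and 13.9 FPKM in healthy and between 51.3 and 54.2 FPKM in watercore pulp (log2 fold change 1.98 ± 0.07, adjusted p = 1.5e-07, edgeR). The spread within each group was small beside the distance between the groups, and the summed squalene synthase level went from 38.6 ± 0.853 to 116 ± 4.01 FPKM, a ratio of 3.01.

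Squalene monooxygenase, also called squalene epoxidase, had further copies expressed in watercore pulp. The gene with most RNA in both groups, LOC103951565, had 18.8, 21.9 and 24.0 FPKM there and 15.9, 15.7 and 14.5 FPKM in watercore pulp. It was lower in every watercore library by a log2 fold change of -0.50 ± 0.10 (adjusted p = 0.00176, edgeR), under the fold threshold. The squalene epoxidase 3-like gene LOC103952682 had overlapping groups near 3 FPKM (log2 fold change -0.10 ± 0.16, adjusted p = 0.591, edgeR). The other 6 tested genes of this enzyme were all called higher, and none of them exceeded 0.629 FPKM in a healthy library.

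Of these 6 genes, LOC103967038 had 0, 0 and 1 count in the healthy libraries and 198, 387 and 207 counts in the watercore libraries, a ratio of 787 (95% interval 141 to 31124). LOC103967055 had 0, 1 and 1 count in healthy and 182, 192 and 136 counts in watercore libraries, a ratio of 253 (95% interval 69.8 to 2098). These exact intervals cover counting error only, and in the fit across all genes the adjusted p was 3.9e-06 for LOC103967038 and 1.2e-06 for LOC103967055 (edgeR). LOC103967056 had no count in any healthy library and 77, 144 and 83 counts in the watercore libraries. LOC103967075 had no healthy count either, and 42, 156 and 40 counts in the watercore libraries. With the healthy group set at 3 counts in sum, the first was at least 101-fold higher (adjusted p = 4.1e-05, edgeR) and the second at least 78.8-fold higher (adjusted p = 7.5e-04, edgeR). In all 4 genes the RNA was near or at the detection limit in healthy pulp and present in each watercore library. The other called genes, LOC103967039 and LOC103952123, had 1 to 18 counts per healthy library and 157 to 227 per watercore library, with log2 fold changes of 5.82 ± 0.36 (adjusted p = 2.5e-06, edgeR) and 4.12 ± 0.28 (adjusted p = 4.2e-06, edgeR).

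**Figure D2:**
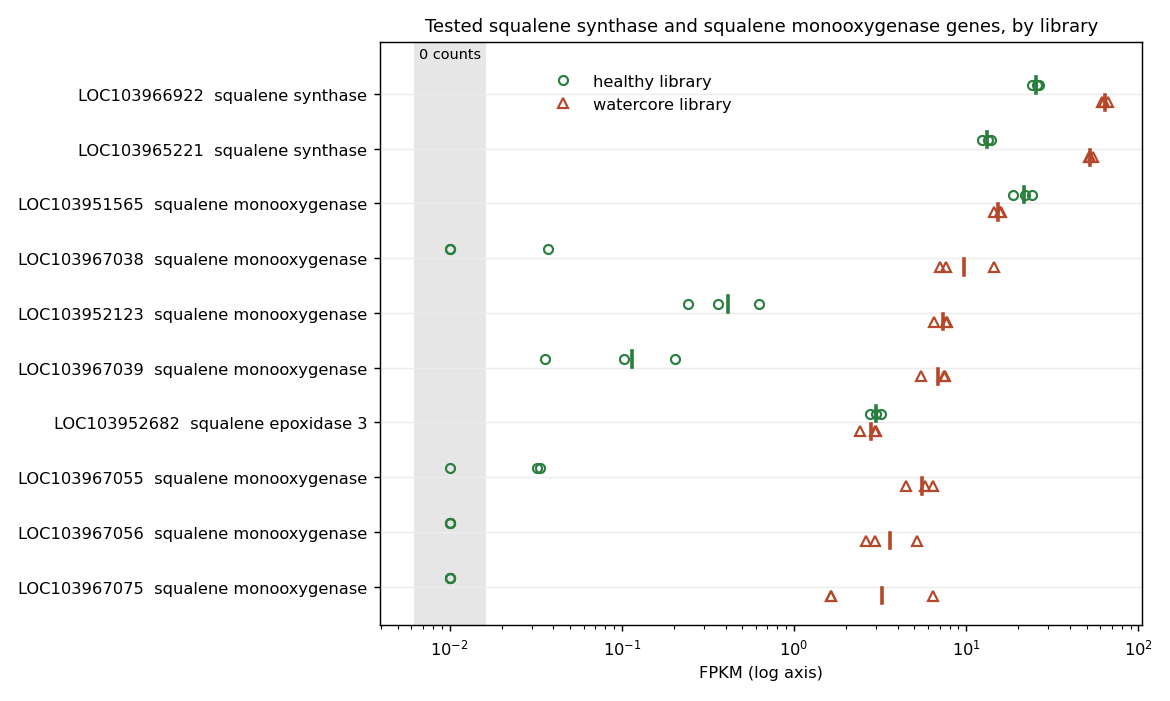
FPKM of the 10 tested squalene synthase and squalene monooxygenase genes in each library on a log axis, healthy libraries as circles and watercore libraries as triangles, with a short line at the mean of groups without a zero and the grey strip for libraries at 0 counts. LOC103951565 and LOC103952682 are the genes whose watercore values are not above the healthy ones, and the 6 monooxygenase genes called higher stay at or under 0.629 FPKM in every healthy library.

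The genes LOC103967039, LOC103967038, LOC103967056, LOC103967055 and LOC103967075 lie together on 1 scaffold, NW_008988369.1, between positions 8983 and 220552, a span of 212 kb. None of the sources used here gives the build of this assembly, and the methods of the paper state mapping to *Pyrus betulifolia*, whereas the identifiers of the table are of another annotation, so the positions are those of the table only. Their summed counts were 13 in healthy and 2434 in watercore libraries, a ratio of 186 (95% interval 109 to 350, counting error only). Per library the sum was 0.204, 0.469 and 0.212 CPM for healthy pulp and 47.6, 75.7 and 42.8 CPM for watercore pulp. These 5 genes made up 0.592 ± 0.302% of the summed squalene monooxygenase FPKM in healthy and 51.9 ± 6.85% in watercore pulp, while the share of LOC103951565 went from 85.5 ± 2.83% to 28.6 ± 4.48%. The total over the 14 genes of the enzyme went from 25.2 ± 2.28 to 54.7 ± 10.7 FPKM.

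The genes between the squalene monooxygenases of this scaffold were not called higher. Another 14 genes are annotated between the first and the last of them. Only 2 had enough counts to be tested, the uncharacterized genes LOC103967044 (log2 fold change -1.31) and LOC103967050 (log2 fold change -1.29), and both were called lower. A pair of transcription factor bHLH18-like genes in the middle had 0 counts in every library. The lncRNA LOC103967057, which runs across LOC103967056 on the opposite strand, had 0 counts in healthy and 54 in watercore pulp, and without knowledge of strand in the counting these reads cannot be told apart. The products between the squalene genes recur in mirrored order on the scaffold, and how reads were divided between near-identical copies is not known, so the values of single copies are less certain than their sum.

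Watercore replicate 2 was high for 3 of the 5 genes. It had 3.93 times the mean CPM of the other watercore libraries for LOC103967075, 1.97 times for LOC103967038 and 1.86 times for LOC103967056, where this ratio was between 0.651 and 1.46 for the middle 90% of tested genes. The 5 genes still summed to 47.6 and 42.8 CPM in the watercore libraries other than replicate 2. The remaining 6 untested or silent squalene monooxygenase genes added little: LOC103952120, 22402 bases from LOC103952123, had 0 counts in healthy and 9, 14 and 7 counts in watercore libraries, at least 9.94-fold higher with healthy pulp set at 3 counts. The other 5 held at most 9 counts each.

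The 17 members named after mono- and sesquiterpene enzymes were almost silent in both groups. None of them passed the filter and 9 had no count at all. The germacrene D synthase-like gene LOC103927426 had most counts, with 0, 3 and 1 in healthy and 15, 10 and 8 in watercore libraries. S-linalool synthase, LOC103947884, had 2 counts in 1 watercore library, and the 4 genes named terpene synthase 9 had none. Summed over the 17 genes the level was 0.227 ± 0.0989 CPM (SD, n = 3) for healthy pulp and 1.02 ± 0.264 CPM for watercore pulp. At this depth a difference in the single genes was mostly not detectable. No member was named a farnesene synthase.

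Carotene synthesis takes place in plastids, and photosynthesis genes of the green plastid summed to between 1157 and 1189 CPM in healthy libraries and between 1189 and 1310 CPM in watercore libraries. Of the 21 tested genes of that list, 3 were called higher and 6 lower. The carotene pathway begins with phytoene synthase, and here too the expressed copies changed. LOC103947408, a phytoene synthase 2-like gene, had 7.62, 6.97 and 12.8 FPKM in healthy and 3.85, 3.78 and 4.46 FPKM in watercore pulp. It was lower in every watercore library, by a log2 fold change of -1.19 ± 0.23 (adjusted p = 0.00167, edgeR), and this became -0.87 (adjusted p = 0.00083, edgeR) without healthy replicate 3, which had the highest value. LOC103965679 had 0.198, 0.44 and 0.41 FPKM in healthy and 2.81, 3.07 and 2.52 FPKM in watercore pulp (log2 fold change 2.97 ± 0.33, adjusted p = 7.3e-05, edgeR). LOC103933882 had 0.265, 0.0873 and 0.0305 FPKM in healthy and 2.19, 2.34 and 1.95 FPKM in watercore pulp (log2 fold change 4.02 ± 0.49, adjusted p = 1.1e-04, edgeR). Both of these were higher in every watercore library, although from fewer than 10 counts per healthy library. The share of LOC103947408 in the phytoene synthase FPKM went from 94.6 ± 1.89% to 44.7 ± 4.79%. The total over the 5 genes was 9.62 ± 3.18 FPKM in healthy and 9.03 ± 0.242 FPKM in watercore pulp, with overlapping groups.

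The later steps to the carotenes among the members had a single tested gene each. Phytoene dehydrogenase, which desaturates phytoene, had 57.0, 57.4 and 47.3 FPKM in healthy and 90.1, 87.6 and 88.3 FPKM in watercore pulp for LOC103960366. All watercore libraries were higher, with a log2 fold change of 0.71 ± 0.08 (adjusted p = 6.1e-05, edgeR) that did not reach the fold threshold. Prolycopene isomerase, LOC103940205, had overlapping groups between 7.75 and 8.94 FPKM (log2 fold change -0.03 ± 0.09, adjusted p = 0.829, edgeR). Lycopene beta cyclase, LOC103933980, lay between 12.1 and 14.8 FPKM with a log2 fold change of 0.09 ± 0.08 (adjusted p = 0.391, edgeR). Lycopene epsilon cyclase, LOC103951887, the entry to lutein, had 0 counts in healthy and 3, 1 and 1 in watercore libraries, so nearly all lycopene cyclase RNA was of the beta kind in both groups.

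Beta-carotene hydroxylase, the first enzyme of xanthophyll synthesis, makes zeaxanthin from beta-carotene, and 2 of its 4 tested genes were called higher. LOC103964324 had 2.75, 2.88 and 2.52 FPKM in healthy and 12.1, 12.1 and 10.3 FPKM in watercore pulp (log2 fold change 2.07 ± 0.15, adjusted p = 5.3e-06, edgeR). LOC103966173 had 0.73, 0.611 and 0.466 FPKM in healthy and 2.14, 2.27 and 2.06 FPKM in watercore pulp (log2 fold change 1.81 ± 0.29, adjusted p = 6.1e-04, edgeR). Neither group pair overlapped, but both genes were minor beside LOC103953392, which had 40.0 FPKM in healthy and 41.3 FPKM in watercore pulp on average, and LOC103958212, which had 31.0 and 26.5 FPKM and overlaps a neighbour on the same strand. The enzyme as a whole summed to 74.3 ± 5.08 FPKM in healthy and 81.6 ± 1.2 FPKM in watercore pulp.

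Zeaxanthin epoxidase converts zeaxanthin to violaxanthin, a precursor of abscisic acid. Its main gene, LOC103956812, had 81.8, 102 and 93.2 FPKM in healthy and 119, 135 and 122 FPKM in watercore pulp. The watercore libraries were all higher, with a log2 fold change of 0.43 ± 0.09 (adjusted p = 0.00194, edgeR), under the fold threshold. The minor gene LOC103935128 was called lower, with 8.69, 10.3 and 9.33 FPKM in healthy and 4.15, 4.13 and 3.66 FPKM in watercore pulp (log2 fold change -1.26 ± 0.11, adjusted p = 2.1e-05, edgeR). LOC103937745 also lay lower in every watercore library, with a log2 fold change of -0.95 ± 0.18 (adjusted p = 0.00171, edgeR) just short of the threshold. The main gene's share of the zeaxanthin epoxidase FPKM was 85.5 ± 0.497% in healthy and 94.6 ± 0.443% in watercore pulp, and the summed level was 108 ± 11.9 FPKM in healthy and 133 ± 9.33 FPKM in watercore pulp. The 3 genes of beta-carotene isomerase D27, which acts towards strigolactones, held at most 18 counts each.

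Carotenoid cleavage was dominated by 1 gene that did not pass the test. LOC103945885, named carotenoid cleavage dioxygenase 1-like, an enzyme that releases volatile fragments such as ionones, had 96.1, 105 and 104 FPKM in healthy and 102, 110 and 103 FPKM in watercore pulp. The groups overlapped and the log2 fold change was 0.04 ± 0.06 (adjusted p = 0.61, edgeR). The gene called higher, LOC103954831, is a probable carotenoid cleavage dioxygenase 4, an enzyme known for carotenoid loss in petals and fruit flesh of other species. It had 1, 0 and 0 counts in healthy and 26, 25 and 16 counts in watercore libraries, a ratio of 66.6 (95% interval 11.5 to 2668, counting error only, adjusted p = 1.5e-04, edgeR). It came to only 0.811 FPKM in watercore pulp, a small amount beside LOC103945885. The 3 genes of the cleavage dioxygenases 7 and 8, which make strigolactones, had no counts.

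**Figure D3:**
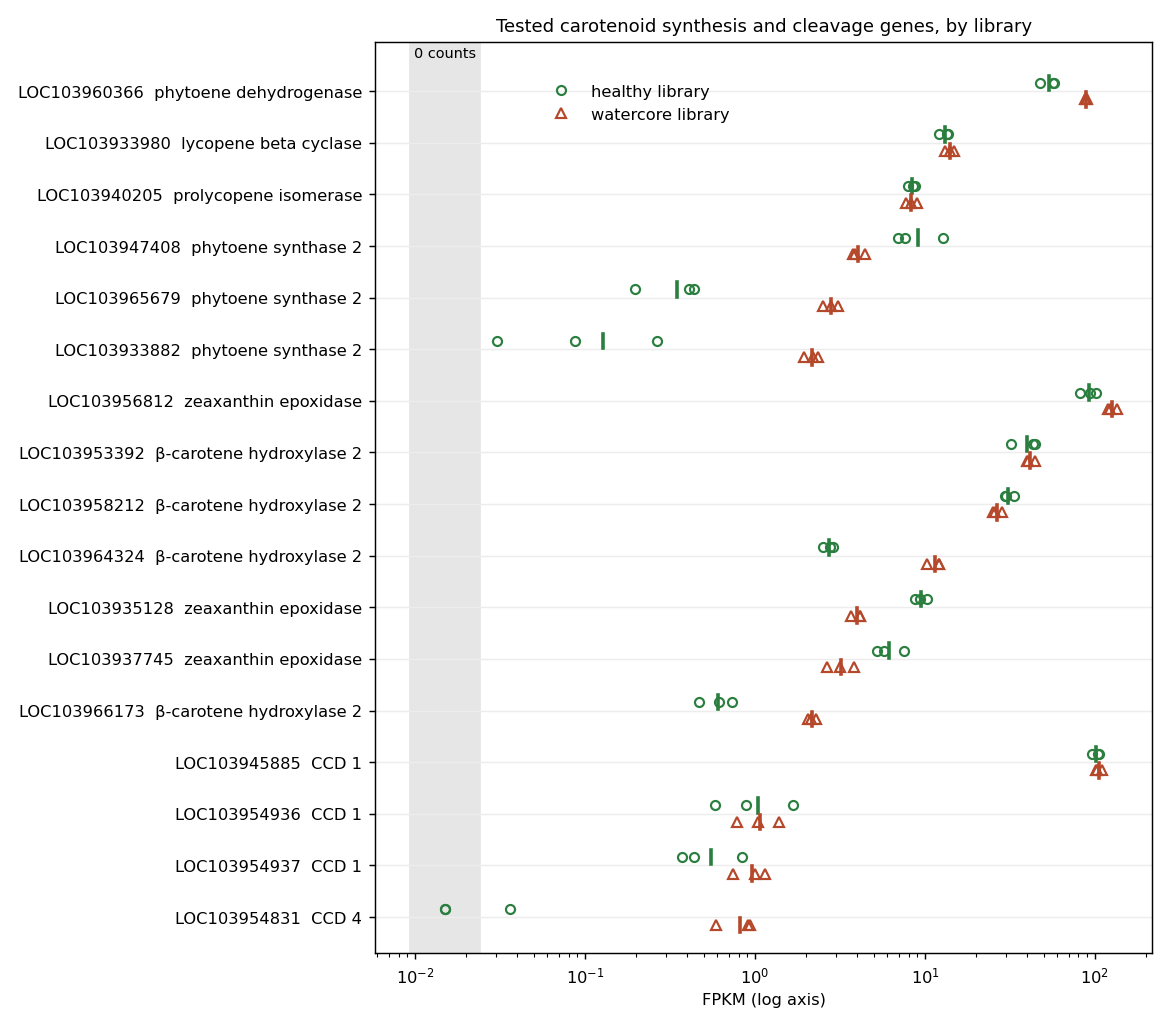
FPKM of the 17 tested carotenoid synthesis and cleavage genes in each library on a log axis, healthy libraries as circles and watercore libraries as triangles, with a short line at the mean of groups without a zero and the grey strip for libraries at 0 counts. The most abundant genes (LOC103945885, LOC103956812, LOC103960366, LOC103953392) have log2 fold changes between 0.04 and 0.71, and the 5 called higher are all below 3 FPKM in the healthy libraries.

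Per role and per gene length, the summed RNA of the squalene enzymes went from 63.8 ± 1.49 to 171 ± 8.87 FPKM, a ratio of 2.68. The HMG-CoA enzymes went from 127 ± 14.7 to 281 ± 8.06 FPKM, a ratio of 2.21. Carotene synthesis went from 85.2 ± 3.32 to 120 ± 0.93 FPKM and xanthophyll synthesis from 182 ± 12.1 to 214 ± 10.2 FPKM, ratios of 1.41 and 1.18. The mono- and sesquiterpene enzymes had a ratio of 3.26 at a very low level, 0.107 ± 0.0525 against 0.35 ± 0.104 FPKM, from genes that were not tested. The groups did not overlap in these 5 sums. They overlapped for the prenyl chain synthases, with 317 ± 12.9 FPKM in healthy and 336 ± 7.43 FPKM in watercore pulp, and for carotenoid cleavage, with 103 ± 4.75 and 108 ± 4.03 FPKM. All members together came to 879 ± 42.6 FPKM in healthy and 1231 ± 23.9 FPKM in watercore pulp.

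The steps that the member rule does not reach were taken from a further list of product names, which gave 113 other genes of the pathways. Of these 60 were tested, 16 were higher (26.7%, beside 17.6% of all tested genes) and 6 lower (beside 7.54%), with a median log2 fold change of 0.16. Of the called genes, 6 of those higher and 3 of those lower were above the filter in every library of 1 group only. Among the 48 above the filter in every library, 20.8% were higher and 6.25% lower, beside 11.0% and 6.83% of all such genes. They were divided into branches after the table had been opened. In the mevalonate branch 13 of 15 were tested, 3 were higher (23.1%, beside 17.6% of all tested genes) and 1 lower (7.69%, beside 7.54%). HMG-CoA reductase, the main control step of the pathway, changed its leading gene. LOC103949512 had 47.4, 57.2 and 40.7 FPKM in healthy and 418, 470 and 367 FPKM in watercore pulp (log2 fold change 3.10 ± 0.13, adjusted p = 4.8e-07, edgeR). LOC103950192 had 8.7, 7.87 and 9.59 FPKM in healthy and 1.32, 1.69 and 1.69 FPKM in watercore pulp (log2 fold change -2.49 ± 0.15, adjusted p = 2.2e-06, edgeR). The leading gene in healthy pulp was LOC103959147 with 58.4 ± 3.93% of the enzyme's FPKM, and in watercore pulp it was LOC103949512 with 87.9 ± 0.971%, while the total went from 144 ± 3.44 to 476 ± 53.9 FPKM. Acetyl-CoA acetyltransferase LOC103951803, which makes acetoacetyl-CoA, rose by a log2 fold change of 1.47 ± 0.09 (adjusted p = 2.2e-06, edgeR) and mevalonate kinase LOC103940938 by 2.03 ± 0.10 (adjusted p = 9.0e-07, edgeR).

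Of 23 triterpene and sterol cyclases, which act after squalene monooxygenase, 11 were tested. Of these, 8 were called higher (72.7%, beside 17.6% of all tested genes) and none lower (beside 7.54%). The 11 cyclases were not divided by the filter. Of the 7 other genes of the pathways above the filter in every watercore library only, 6 were called higher. Of the genes of all kinds in that position, 80.2% were called higher. The 3 tested cyclases that were not called are cycloartenol synthases with overlapping groups. The most abundant of them, LOC103938459 (log2 fold change 0.24 ± 0.10, adjusted p = 0.0583, edgeR), overlaps the uncalled LOC108866516 on the same strand. Among the 8 called higher were the cycloartenol synthase genes LOC103937092 and LOC103959409. Beta-amyrin synthase LOC103927760 had 19.0, 20.1 and 13.0 FPKM in healthy and 53.8, 56.5 and 52.4 FPKM in watercore pulp (log2 fold change 1.63 ± 0.14, adjusted p = 1.4e-05, edgeR). LOC103935918, another beta-amyrin synthase, had 1 count in healthy and 469 in watercore pulp, a ratio of 466 (95% interval 83.2 to 18446, counting error only), and it was 2.55 times as high in watercore replicate 2 as in the other watercore libraries. It entered the test only through its watercore libraries. Summed over 15 genes beta-amyrin synthase went from 21.7 ± 4.79 to 104 ± 7.43 FPKM, and cycloartenol synthase, the cyclase of the sterol branch, went from 37.6 ± 4.21 to 45.3 ± 4.58 FPKM over 8 genes, with no test of either sum. The 3 tested genes named beta-amyrin 28-oxidase, which turn beta-amyrin into oleanolic acid, were all called higher. LOC103965050 had 11.6, 19.5 and 4.74 FPKM in healthy and 115, 168 and 113 FPKM in watercore pulp (log2 fold change 3.44 ± 0.38, adjusted p = 7.0e-05, edgeR), LOC103945098 changed by 2.49 ± 0.19 (adjusted p = 8.8e-06) and LOC103942732 by 4.69 ± 0.34 (adjusted p = 5.9e-06).

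The plastid route to isopentenyl diphosphate held no gene called higher, beside 17.6% of all tested genes. Of its 16 genes 15 were tested and 1 was called lower (6.67%, near the 7.54% of all tested genes). A further 5 had an adjusted p under 0.05 in the lower direction short of the fold threshold. In the higher direction 1 did, the deoxyxylulose phosphate synthase LOC103954706 (log2 fold change 0.52 ± 0.09, adjusted p = 7.3e-04, edgeR). With no minimum fold change, 6435 of all 21200 tested genes were lower and 6840 higher at that adjusted p. The called gene, LOC103954157, a deoxyxylulose phosphate synthase, had 5.27, 4.99 and 4.38 FPKM in healthy and 1.97, 2.08 and 2.15 FPKM in watercore pulp (log2 fold change -1.25 ± 0.14, adjusted p = 6.0e-05, edgeR). The most abundant gene, LOC103964132, a hydroxymethylbutenyl diphosphate reductase, lay between 456 and 492 FPKM in healthy and between 313 and 338 FPKM in watercore pulp (log2 fold change -0.55 ± 0.06, adjusted p = 4.0e-05, edgeR). The branch summed to 864 ± 36.3 FPKM in healthy and 663 ± 17.7 FPKM in watercore pulp, and the mevalonate branch to 470 ± 24.5 and 986 ± 66.1 FPKM.

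**Figure D4:**
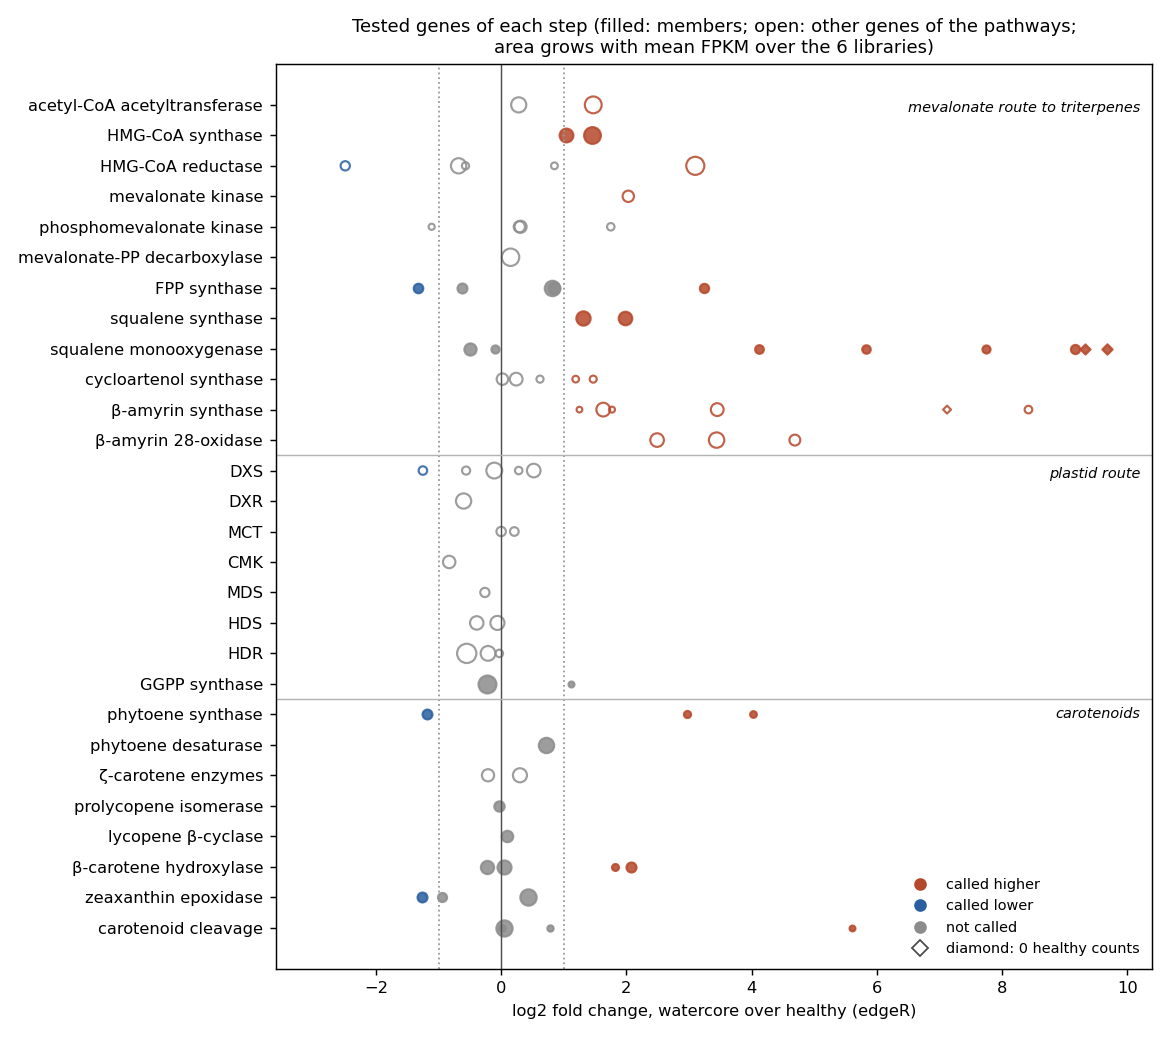
Fitted log2 fold change of every tested gene of each enzyme, members filled and other genes of the pathways open, with the area growing with mean FPKM, dotted lines at the fold threshold and diamonds for genes with 0 healthy counts, whose fitted value depends on the prior count. Genes called higher (red) appear at most steps from acetyl-CoA acetyltransferase to beta-amyrin oxidase, and at none of the steps of the plastid route, from deoxyxylulose phosphate synthase (DXS) and reductoisomerase (DXR) over the methylerythritol phosphate enzymes (MCT, CMK, MDS) to the hydroxymethylbutenyl diphosphate enzymes (HDS, HDR).

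Of 7 further carotenoid genes, 6 were tested and 1 was called, NEOXANTHIN-DEFICIENT 1-like LOC103967283, required for neoxanthin in *Arabidopsis*, which had 0.349, 0.64 and 0.258 FPKM in healthy and 8.92, 10.1 and 11.6 FPKM in watercore pulp (log2 fold change 4.58 ± 0.28, adjusted p = 2.5e-06, edgeR). The most abundant of them, zeta-carotene desaturase LOC103954429, changed by 0.30 (adjusted p = 0.00229). A 9-cis-epoxycarotenoid dioxygenase of abscisic acid synthesis, LOC103951286, was called lower at -1.07 ± 0.21 (adjusted p = 0.00198, edgeR), which became -0.98 without healthy replicate 2 and -0.94 without watercore replicate 1. LOC103957334 of the same enzyme, which was not tested, went the other way. It had 2, 2 and 3 counts in healthy and 20, 28 and 7 counts in watercore libraries. The 5 genes of the enzyme summed to 5.12 ± 1.07 FPKM in healthy and 3.22 ± 0.707 FPKM in watercore pulp. Geranylgeranyl diphosphate reductase LOC103931434, which makes the phytol chain of chlorophyll and tocopherol, fell by 3.19 on the log2 scale (SE 0.36, adjusted p = 7.7e-05, edgeR). Watercore replicate 2 had 2.3 times the mean CPM of the other watercore libraries for LOC103931434. A solanesyl diphosphate synthase gene, LOC103936506, fell by 1.35 (SE 0.40, adjusted p = 0.0148), and the more abundant LOC103951314 changed by 0.22 (adjusted p = 0.0248). The 4 genes of this prenyl chain branch summed to 33.3 ± 2.28 FPKM in healthy and 34.5 ± 1.21 FPKM in watercore pulp, with overlapping groups. In gibberellin synthesis the kaurenoic acid oxidase LOC103948777 fell by 2.26 (SE 0.42, adjusted p = 0.00147) and the more abundant LOC103962469 changed by 0.40 (adjusted p = 0.072). LOC103931434, LOC103936506 and LOC103948777 were above the filter in every healthy library but not in every watercore library. Of the 631 genes of all kinds in that position, 58.6% were called lower. The nerolidol synthase-like gene LOC103958115 was the single tested gene of its branch and rose by 2.16 ± 0.54 (adjusted p = 0.00675, edgeR), from between 0.0722 and 0.401 FPKM to between 0.786 and 1.08 FPKM. Both LOC103958115 and LOC103967283 were above the filter in every watercore library but not in every healthy library. Of the 2187 genes of all kinds in that position, 80.2% were called higher. The pattern for isopentenyl enzymes also took in 8 cytokinin genes, of which the single tested one, LOC103947653, changed by 0.15 (adjusted p = 0.654).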

How the data were processed

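Libraries were prepared from total RNA and the authors mapped the cleaned reads with HISAT2. The methods of the paper name *Pyrus betulifolia* as the reference, whereas the gene and scaffold identifiers of the table belong to another annotation. None of the sources used here gives the genome build of the table, the counting tool or the strand setting. The authors deposited whole-number counts per gene without normalization, and FPKM values that equal these counts divided by gene length and a library denominator. The columns of the authors' own comparison (fold changes and p-values) were not used, and 0 columns per library were left unused. Libraries held 14382020 to 15290688 counts and the biological coefficient of variation was 0.143. Replicate counts differed by more than sampling noise (chi-square per degree of freedom 4.18 to 10.49).

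Counts were fitted with edgeR 4.0.16 (glmQLFit and glmQLFTest, TMM factors, filterByExpr at its default) under R 4.3.3 over all 21200 genes kept, with Benjamini-Hochberg adjustment. The standard error is the log2 fold change divided by the square root of F. A group at 0 counts was set at 3 counts in sum, and ratios against 1 to 3 counts an exact 95% interval. Alternatives were scaling by total counts, upper quartile or RLE, DESeq2 1.42.0, other filters, a replicate block, glmTreat, no minimum fold change, gene length offsets, limma 3.58.1 on log2 FPKM with pseudocounts of 1 and 0.1, and each library left out. The fits were tested on simulated data. Tables were made with Python 3.11.15, pandas 2.3.3, numpy 2.4.6 and scipy 1.17.1, and plots with matplotlib 3.10.9.

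All called members were named, with values per library for up to 4 per role and for the most abundant. Of the other genes, up to 5 called per branch were named, or the extreme change per direction where more were called, besides the most abundant gene. The members and lists were chosen with earlier results of these data known. LOC103935502, LOC103930143, LOC103956923, LOC103939178, LOC103939192, LOC103927268, LOC103951565, LOC103952682, LOC103952120, LOC103927426, LOC103947884, LOC103940205, LOC103933980, LOC103951887, LOC103953392, LOC103958212, LOC103937745, LOC103959147, LOC103967044, LOC103967050, LOC103967057, LOC103938459, LOC108866516, LOC103937092, LOC103959409, LOC103957334 and LOC103954706 were named after their values were seen. The sources do not say how reads of similar genes were divided.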

Additional observations from a re-analysis of the deposited data

How the results depend on the processing

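Of the 20 called members, 14 kept their call in every alternative that tested them and none reversed. LOC103952874, LOC103939999, LOC103950899 and LOC103947408 lost it under glmTreat, LOC103939999, LOC103947408, LOC103966173 and LOC103954831 under limma on log2(FPKM + 1), and LOC103952874 and LOC103947408 when a library was left out. With at least 10 counts in every library 11 called members were not tested and 6 members were higher. Members taken by the whole description field numbered 151, with 26 higher and 6 lower. For members lower the count was 1 under glmTreat and 8 with no minimum fold change. Leaving out any library gave 16 to 19 members higher and 2 to 4 lower, and 16 to 18 and 5 to 6 of the other genes of the pathways.

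For the other genes of the pathways, 10 were higher under limma on log2(FPKM + 1) with or without a mean FPKM of at least 1. The number lower was 3 under each of these, with at least 10 counts in every library and under glmTreat, and 12 with no minimum fold change. Over all genes 3730 were higher and 1599 lower. These became 2205 and 1047 with at least 10 counts in every library, 2463 and 564 under glmTreat, 2313 and 824 under limma on log2(FPKM + 1), 2123 and 817 under limma with a mean FPKM of at least 1, and 6840 and 6435 with no minimum fold change. With a library left out they lay between 3736 and 4060 and between 1530 and 1655. The log2 fold change of LOC103947653, 0.15 over all libraries, was -0.13 without watercore replicate 3 and up to 0.32 without another library, none past the threshold, and the cause was not tested.

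Same-numbered libraries of the groups did not deviate together (r between -0.003 and 0.037). With 3 libraries per group this cannot decide whether same-numbered libraries share a tree or fruit, and the labels state no pairing. With the replicate block 17 members were higher and 3 lower, 16 and 6 of the other genes of the pathways, and 3716 and 1560 of all genes. Sums per role by CPM in place of FPKM kept their direction. None of the 17 members named after mono- and sesquiterpene enzymes had enough counts to be tested at this depth.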
